A study of Mus musculus with 30 samples.

Results

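The genes described here make up the core of MHC class II antigen presentation in the fracture callus of mice that lack *Apex1*, the apurinic/apyrimidinic endonuclease of base excision repair, in the limb mesenchyme. The 7 genes, *H2-Aa*, *H2-Ab1*, *H2-Eb1*, *H2-DMa*, *H2-DMb1*, *Cd74* and *Ciita*, were chosen by name from 55416 genes counted, and *H2-Aa* was chosen for its rise at 6 days post fracture (-dpf), so the 6-dpf values of all 7 are given as a description with no test. All 7 passed the filter on low counts at every time point, and the lowest count of any of them in any library was 216. The callus was dissected from non-stabilized closed fractures of the tibia in 30 young adult mice, 17 wild-type (WT) and 13 P-Apex1KO. P-Apex1KO mice carry *Prrx1*-Cre and 2 floxed *Apex1* alleles, and *Prrx1*-Cre acts in limb bud mesenchyme, so that blood-derived cells of the callus keep *Apex1*. By the cross used, of Cre males with a single floxed allele and females with 2, WT littermates carry floxed alleles too and can carry Cre with a single floxed allele, and which of these each WT mouse was is not given in the sources used here. There were 4 WT and 4 P-Apex1KO mice at 3-dpf, 5 and 3 at 6-dpf, 4 and 3 at 10-dpf, and 4 and 3 at 14-dpf.

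MHC class II molecules are heterodimers of an alpha and a beta chain that display peptides from endocytosed proteins to CD4 T cells. They are found mainly on dendritic cells, B cells and activated macrophages, and interferon gamma can induce them in other cells. *H2-Aa* and *H2-Ab1* encode the alpha and beta chains of I-A, *H2-Eb1* encodes the beta chain of I-E, and *Cd74* encodes the invariant chain that fills the groove until the endosome. *H2-DMa* and *H2-DMb1* encode the chains of H2-M, the endosomal molecule that exchanges the invariant chain remnant for peptide. *Ciita* encodes the transactivator that assembles on the X and Y boxes of class II promoters.

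The promoter letters on which that transactivator's partners sit are shown for an alpha chain gene and a beta chain gene because these 2 were among the members that moved together. RefSeq promoter windows on GRCm38.p6, from 250 bases before to 50 bases after the gene start, matched 4 of the 7 genes, and those of *H2-Ab1*, *Cd74* and *Ciita* were not analysed here. Each stretch runs from 110 to 31 bases before the gene start, with matches to the Y box (CCAAT, or its reverse complement), the X box core (AACNGATG) and the X2 box (TGACGTCA, a motif added after the data were seen) in capitals. The *H2-Aa* stretch is on the minus strand at chr17:34287854-34287933 and the *H2-Eb1* stretch on the plus strand at chr17:34305757-34305836.
H2-Aa: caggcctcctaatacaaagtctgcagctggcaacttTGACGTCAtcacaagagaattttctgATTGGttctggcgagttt
H2-Eb1: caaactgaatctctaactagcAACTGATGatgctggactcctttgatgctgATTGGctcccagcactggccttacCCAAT
The *H2-Eb1* and *H2-DMb1* windows held the same X box core, AACTGATG, ending 82 and 85 bases before the gene start, and each had a Y box, 55 and 57 bases before it. *H2-Eb1* held a further Y box 31 bases before its start. In *H2-Aa* a Y box lay 44 bases before the start and an X2 box 67 bases before it, and no X box core was found. Of the 2 windows of *H2-DMa*, 1 held a Y box, 194 bases before its start, and neither held an X box core. Searched on both strands, the X box core was present in 2.32% of 32851 promoter windows of the same length, the Y box in 37.4% and the X2 box in 1.79%. The looser X box core ACNNATG, which overlaps the stricter one, was in 30.2% of windows. It also matched in the *H2-Aa* window, 226 bases before the start, and in neither window of *H2-DMa*. The interferon gamma activated site TTCNNNGAA was in 8.3% of windows and in none of these 5 windows. These are matches of letters, and binding was not measured.

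In GENCODE on GRCm39, *H2-Aa* spans chr17:34493404-34506798 on the minus strand, *H2-Ab1* spans chr17:34476663-34488393 and *H2-Eb1* spans chr17:34504236-34535648, both on the plus strand. Exons of *H2-Aa* and *H2-Eb1* overlap on opposite strands, as do those of *Ciita* and *Dexi* and those of *H2-DMa* and *Brd2*, and the reads were counted by strand. *H2-DMb1* (chr17:34372046-34379204) has a near-identical neighbour, *H2-DMb2*, so counts of both are uncertain. *H2-DMa*, *Cd74* and *Ciita* lie on chromosomes 17, 18 and 16.

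The libraries held 18334389 to 43111491 counted reads each, and levels are given as CPM, the counts scaled to the size of the library with TMM factors. *Apex1* itself was at 20.7 to 28.9 CPM in WT and 15.1 to 15.9 CPM in P-Apex1KO mice at 6-dpf, at 17 to 27.5 and 14.0 to 16.8 CPM at 10-dpf, and at 19.8 to 27.2 and 14.2 to 18.6 CPM at 14-dpf, without overlap at these times. At 3-dpf *Apex1* was at 26.5 to 33.1 CPM in WT mice and at 18.4 to 34.6 CPM in the other group, whose highest mouse lay above all WT mice, so these are called the libraries labelled P-Apex1KO. The bone markers (*Col1a1*, *Bglap*, *Ibsp*, *Sp7*, *Alpl*, *Dmp1*) had a summed level of 9383 CPM or more in every mouse, most of it *Col1a1*. The lowest levels of *Bglap*, *Sp7*, *Dmp1*, *Alpl* and *Ibsp* in any mouse were 1.51, 4.13, 5.43, 10.1 and 22.8 CPM. The sum alone thus does not show bone in every mouse. The callus label was met by the cartilage markers from 6-dpf on. In bulk tissue, fewer cells that express a gene and less of its RNA per cell cannot be told apart.

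At 3-dpf, the inflammatory stage of repair, no difference between the genotypes was detected for any of the class II genes. *H2-Aa* was at 290.3, 354, 338 and 373 CPM in the WT mice and at 272, 169.5, 355 and 299.5 CPM in the libraries labelled P-Apex1KO, and the 2 groups overlapped. *Cd74* was at 545 to 756 CPM in WT and 396 to 768 CPM in the other group. The log2 fold changes of the 7 genes ran from -0.26 ± 0.20 (SE, *H2-Eb1*) to -0.03 ± 0.11 (*H2-DMa*), with Benjamini-Hochberg adjusted p-values of 0.879 to 0.976 by the quasi-likelihood test of edgeR. None of the 7 was called by edgeR or DESeq2, 0 had an unadjusted p under 0.05, and edgeR called 0% of all 19866 genes. The lowest mouse labelled P-Apex1KO, replicate 2, was lowest of its group for all 7 genes, with *Ciita* at 21.7 CPM against 42.4 to 43.6 CPM in the other 3.

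At 6-dpf, when cartilage forms in the WT callus, the 2 groups lay apart for the chains of the class II molecule, the invariant chain and the transactivator, and overlapped for the chains of H2-M. *H2-Aa* was at 144, 99.8, 127, 117 and 143 CPM in the WT mice and at 322, 255 and 316 CPM in the P-Apex1KO mice. *Cd74* was at 367, 223, 309.7, 288 and 360.1 CPM in WT and at 766, 588 and 743 CPM in P-Apex1KO mice, and *Ciita* was at 23.6, 16.7, 20.5, 16.6 and 20.2 CPM and at 39.9, 33.9 and 50.4 CPM. In these 3 genes every P-Apex1KO mouse was above every WT mouse. *H2-Ab1* was at 134 ± 22.2 CPM (SD, n = 5) in WT and 261 ± 27.7 CPM (n = 3) in P-Apex1KO mice, and *H2-Eb1* at 105 ± 15.1 and 245 ± 35.1 CPM, also without overlap.

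*H2-DMa* was at 23.9, 23.8, 26.3, 27.5 and 32.6 CPM in WT and at 35.2, 26.5 and 31.5 CPM in P-Apex1KO mice, and *H2-DMb1* at 16.9, 20.9, 19.0, 22.9 and 25.8 CPM and at 25.8, 23.3 and 23.0 CPM. These chains of the peptide exchanger overlapped between the genotypes. The fitted log2 fold changes, the measure that picked *H2-Aa*, were 1.35 ± 0.11 (SE) for *H2-Aa*, 1.32 ± 0.11 for *H2-Eb1*, 1.31 ± 0.13 for *Cd74*, 1.18 ± 0.15 for *Ciita*, 1.06 ± 0.12 for *H2-Ab1*, 0.28 ± 0.12 for *H2-DMa* and 0.22 ± 0.14 for *H2-DMb1*. Thus 5 of 7 were higher without overlap, beside 8.71% of 20260 genes, and nothing is read from that share because the choice used this contrast.

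**Figure D1:**
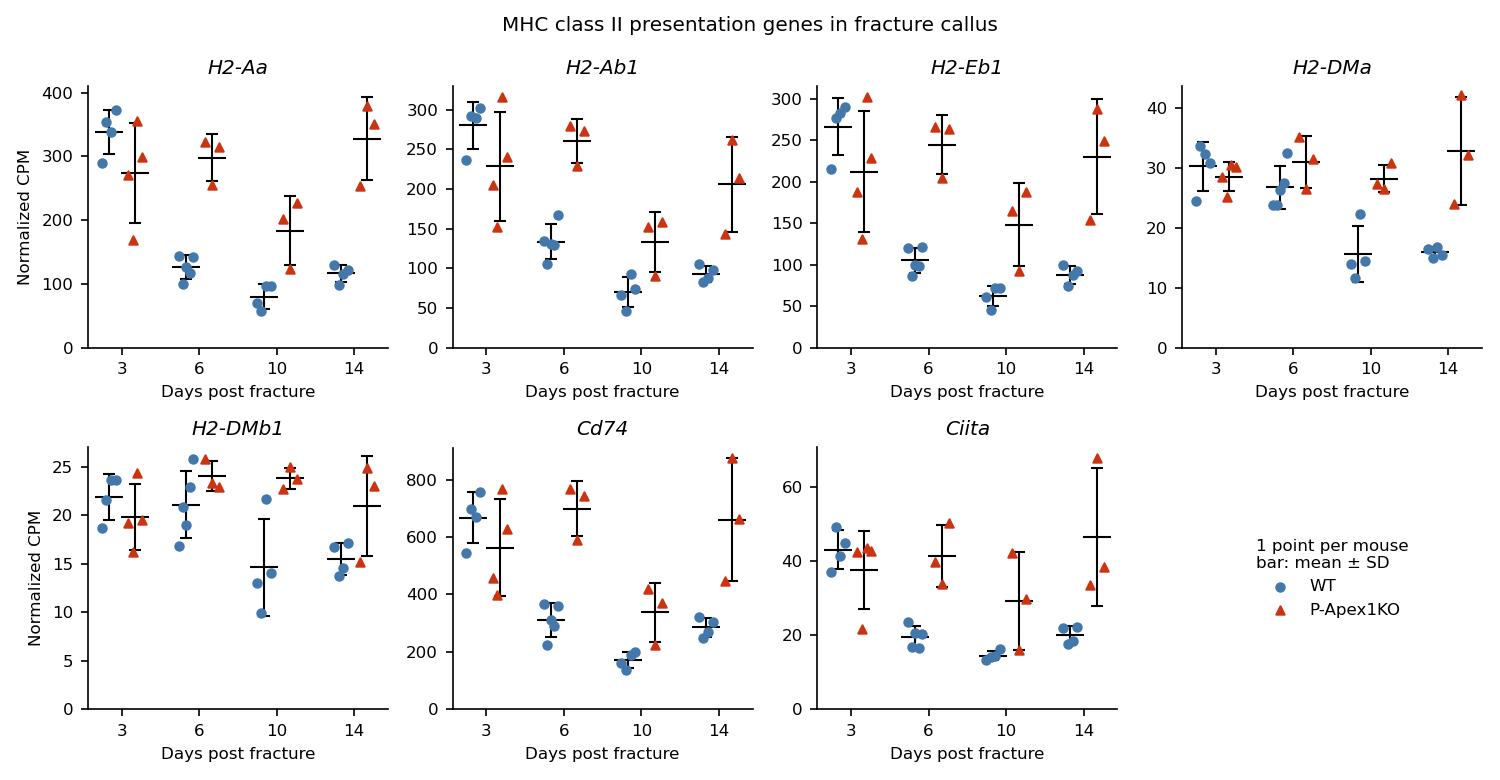
Normalized CPM (vertical axes, each from 0) of the 7 genes in each mouse against days post fracture, with circles for WT and triangles for P-Apex1KO mice and black bars for the group mean ± SD. The groups overlap at 3-dpf for all 7 genes, and at 14-dpf the 3 P-Apex1KO mice sit between 254 and 379 CPM for *H2-Aa*, above the WT mice at 98.6 to 129.5 CPM.

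At 10-dpf, a time the choice of genes did not use, *H2-Aa*, *H2-Eb1* and *H2-DMa* were higher in P-Apex1KO than in WT callus. *H2-Aa* was at 69.7, 57.6, 96.2 and 97.2 CPM in the WT mice and at 201, 123 and 226 CPM in the P-Apex1KO mice, a log2 fold change of 1.20 ± 0.25 (SE, adjusted p = 0.0442, edgeR), and the groups did not overlap. *H2-Eb1* was at 60.8, 45.1, 71.4 and 71.5 CPM and at 165, 92.1 and 188 CPM (log2 fold change 1.26 ± 0.27, adjusted p = 0.0486). *H2-DMa*, which had overlapped at 6-dpf, was at 14.0, 11.6, 22.4 and 14.4 CPM and at 27.3, 26.5 and 30.8 CPM (log2 fold change 0.83 ± 0.18, adjusted p = 0.0347). In each of these 3 genes the highest WT mouse was below the lowest P-Apex1KO mouse.

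The other 4 did not pass the threshold at 10-dpf. *H2-DMb1* was at 14.6 ± 4.99 CPM (SD, n = 4) and 23.8 ± 1.12 CPM (n = 3), with a log2 fold change of 0.68 ± 0.19 (SE), and *Cd74* at 171 ± 28.9 and 337 ± 102 CPM, with a log2 fold change of 0.99 ± 0.24. The log2 fold change was 0.94 ± 0.27 for *H2-Ab1* and 1.03 ± 0.28 for *Ciita*, and the adjusted p-values of these 4 genes by edgeR ran from 0.0569 to 0.100. *Ciita* and *H2-Ab1* overlapped because of P-Apex1KO replicate 2, at 15.9 CPM against 42.2 and 29.8 CPM in the other 2 for *Ciita* and at 89.8 against 152 and 159 CPM for *H2-Ab1*. For the H2-M chains the same mouse was the highest of its group for *H2-DMb1*, at 24.9 CPM against 22.7 and 23.8 CPM, and the lowest for *H2-DMa*, at 26.5 CPM against 27.3 and 30.8 CPM.

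Counted over the members, 3 of 7 were called higher at 10-dpf, beside 3.01% of 18910 genes, and 5 of 7 were higher without overlap, beside 8.79% of genes. DESeq2 called 7 of 7, beside 6.28% of genes. All 7 had an unadjusted p under 0.05, as did 24.3% of all genes, the median log2 fold change of the members was 0.99, and that of all genes was -0.00. The count was small enough to turn on single mice: it was 0 without WT replicate 1, WT replicate 2, P-Apex1KO replicate 1 or P-Apex1KO replicate 3, 1 without WT replicate 4, 2 without WT replicate 3 and 6 without P-Apex1KO replicate 2. With library size alone in place of TMM, and with no filter, 2 were called. In both settings *H2-Aa* (adjusted p = 0.0519 and 0.157, edgeR) and *H2-Eb1* (adjusted p = 0.0583 and 0.170) lost their call. *H2-DMa* kept its call, and the other member called was 1 that the main fit had not called. With the replicate number as a block in place of sex, 5 were called. Over all genes tested at 10-dpf, 1221 were called, and 42 to 1827 with 1 mouse left out.

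At 14-dpf *H2-Aa* was higher in the P-Apex1KO callus and the differences of the other 6 members, also in the direction of P-Apex1KO, did not pass the threshold. *H2-Aa* was at 129.5, 98.6, 116 and 121 CPM in the WT mice and at 254, 379 and 351 CPM in the P-Apex1KO mice, a log2 fold change of 1.37 ± 0.25 (SE, adjusted p = 0.0155, edgeR). *Cd74* was at 322, 248, 269 and 303 CPM and at 445, 875 and 661 CPM, with a log2 fold change of 1.07 ± 0.36 (adjusted p = 0.105), and *Ciita* at 21.9, 17.6, 18.6 and 22.2 CPM and at 33.6, 68.1 and 38.4 CPM, with 1.12 ± 0.41 (adjusted p = 0.134). Neither gene overlapped between the groups. P-Apex1KO replicate 2 was the highest mouse for all 7 genes.

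*H2-Ab1*, *H2-Eb1* and *H2-DMa* had log2 fold changes of 1.00 ± 0.32, 1.24 ± 0.35 and 1.03 ± 0.30 (SE) and did not overlap, with adjusted p-values of 0.0931, 0.0696 and 0.0702 by edgeR. *H2-DMb1* overlapped, at 16.7, 13.7, 14.5 and 17.1 CPM in WT and 15.1, 24.9 and 23.0 CPM in P-Apex1KO mice (log2 fold change 0.36 ± 0.29, adjusted p = 0.463). Thus 1 of 7 was called higher, beside 4.28% of 20228 genes, and 6 of 7 were higher without overlap, beside 18.5% of genes.

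The count at 14-dpf turned on how sex was handled, since the 3 P-Apex1KO mice were female and 1 of the 4 WT mice was, replicate 1, on which the genotype difference rests when sex is in the model. That mouse was the highest WT mouse for *H2-Aa*, *H2-Ab1*, *H2-Eb1* and *Cd74*. Its summed skeletal muscle markers were at 4253 CPM, against 1141 to 1372 CPM in the other WT mice. Its summed cartilage markers were at 860 CPM, against 3485 to 5023 CPM. The 14-dpf calls of the gene lists below come from the same model and rest on that mouse too. Without the sex term 6 of 7 were called higher, beside 3467 of 18410 genes. Without that mouse and without the sex term, an alternative chosen after the data were seen, 6 were also called higher, beside 3185 of 18101 genes. The main fit called 865 of 20228 genes higher, so the calls over all genes rose too. DESeq2, with sex in the model, called 6 of 7, beside 7.09% of genes. The count was 5 without P-Apex1KO replicate 1, beside 1373 of 19703 genes called higher, and 3 without replicate 2, beside 1649 of 19814. Over all 30 mice none of the 7 was called between females and males by edgeR (0 with an unadjusted p under 0.05), a comparison added after the data were seen, beside 0.635% of 20642 genes, and the log2 difference, female minus male, ran from -0.02 ± 0.10 (SE) for *H2-DMb1* to 0.23 ± 0.13 for *Ciita*. Within 6-dpf, *H2-Aa* (0.29 ± 0.10), *H2-Eb1* (0.26 ± 0.11) and *Cd74* (0.36 ± 0.13) had an unadjusted p under 0.05 for sex, higher in females, and an adjusted p of at least 0.997.

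**Figure D2:**
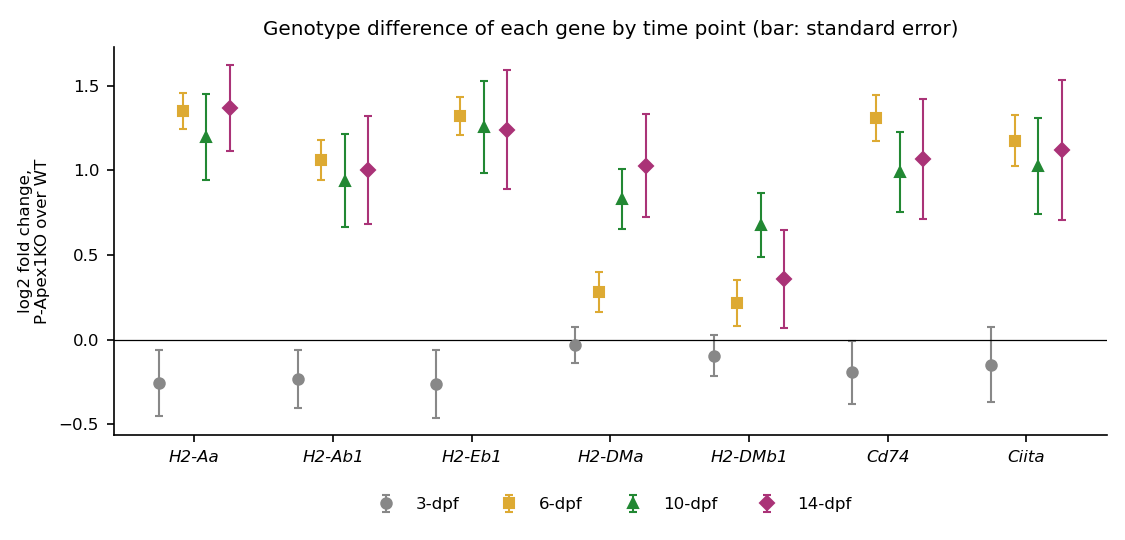
Fitted log2 fold change, P-Apex1KO over WT (vertical axis), of each gene at 3-, 6-, 10- and 14-dpf, with bars for the standard error. The 3-dpf values lie between -0.26 and -0.03, the 6-dpf values of *H2-DMa* and *H2-DMb1* (0.28 and 0.22) lie below those of the other 5 genes (1.06 to 1.35), and at 10-dpf *H2-DMa* reaches 0.83.

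Over time, the WT and P-Apex1KO courses parted between 3- and 6-dpf. The WT mean of *H2-Aa* at 6-dpf was 0.373 times that at 3-dpf, while in P-Apex1KO mice the ratio was 1.09. For *Cd74* these ratios were 0.464 and 1.24, and for *Ciita* 0.453 and 1.10. The H2-M chains kept a WT ratio nearer to 1, 0.884 for *H2-DMa* and 0.964 for *H2-DMb1*. These ratios contain the 6-dpf values and were not tested, and 6-dpf was not compared with 10-dpf because the sample names change there, so time and a possible library batch cannot be told apart.

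From 10- to 14-dpf the WT mean of *Cd74* was 1.67-fold higher and that of *H2-Aa* 1.45-fold higher, and in P-Apex1KO mice they were 1.96-fold and 1.79-fold higher. By edgeR, none of the 7 passed the threshold in WT mice (lowest adjusted p = 0.0605, *Cd74*), beside 11.1% of 19705 genes, or in P-Apex1KO mice (lowest adjusted p = 0.171, *H2-Aa*), beside 0.259%. In each genotype 2 members, *H2-Aa* and *Cd74*, had an unadjusted p under 0.05. DESeq2 called 1 member in WT mice, beside 14.5% of genes, and 2 in P-Apex1KO mice, beside 2.79%. The genotype difference itself was not shown to change from 10- to 14-dpf for any member. The interaction was -0.06 ± 0.33 (SE, log2) for *H2-DMb1* and up to 0.40 ± 0.35 for *H2-Aa*, with 0 of 7 called by edgeR, beside 0.436% of genes, and by DESeq2, beside 2.26%, and 0 with an unadjusted p under 0.05.

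Per kilobase of canonical transcript, *Cd74* was the most abundant member and *Ciita* the least in every group. In WT mice at 6-dpf the mean level was 216 CPM per kilobase for *Cd74*, 112 for *H2-Aa*, 110.3 for *H2-Ab1*, 62.0 for *H2-Eb1*, 23.3 for *H2-DMa*, 15 for *H2-DMb1* and 2.61 for *Ciita*. The group means kept this order in all 8 groups. The ranges of *Cd74* and *H2-Aa* overlapped in 3 of the 8 groups, those of *H2-Aa* and *H2-Ab1* in 5, those of *H2-Ab1* and *H2-Eb1* in 4 and those of *H2-DMa* and *H2-DMb1* in 1, so these neighbours in the order are not apart beyond their spread there. *H2-Eb1* was above *H2-DMa*, and *H2-DMb1* above *Ciita*, without overlap in all 8. With the length of all annotated exons in place of the canonical transcript, *H2-Aa* fell below *H2-Ab1* and *H2-Eb1* in every group, because its annotation holds 4292 bases of exon against a canonical transcript of 1128 bases.

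The ratio of 2 members within a mouse does not depend on scaling between libraries. These ratios were chosen after the data were seen. Of the I-A chains, *H2-Aa* over *H2-Ab1* in CPM was 1.17 to 1.23 in WT and 1.11 to 1.32 in the libraries labelled P-Apex1KO at 3-dpf, with overlap. It was 0.852 to 1.08 in WT and 1.12 to 1.15 in P-Apex1KO mice at 6-dpf, 1.04 to 1.30 and 1.33 to 1.43 at 10-dpf, and 1.19 to 1.32 and 1.45 to 1.78 at 14-dpf, without overlap at these 3 times. At 10- and 14-dpf, the counts of the alpha chain thus stood higher relative to those of its partner beta chain in every P-Apex1KO mouse than in any WT mouse of that time, and nothing is read from the 6-dpf ratio, since *H2-Aa* was chosen for its rise then.

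At 10- and at 14-dpf a two-sided exact permutation test gave p = 0.0571 for this ratio, the smallest that 3 against 4 mice allow (0.156 after Benjamini-Hochberg adjustment over 30 tests of ratios), and at 3-dpf it gave p = 0.857. *H2-Eb1* over *H2-Ab1* was also without overlap at 10-dpf (0.774 to 0.970 in WT, 1.03 to 1.19 in P-Apex1KO mice) and at 14-dpf (0.893 to 0.991 and 1.07 to 1.17), while *Cd74* over *H2-Ab1* overlapped at each of the 4 times. *H2-Aa* over *H2-DMb1*, a presenting chain against an exchanger chain, was 14.3 to 16.4 in WT mice at 3-dpf and 4.78 to 8.57 at 6-dpf, and in the other genotype 10.5 to 15.3 and 11 to 13.7. At 14-dpf it was 7.10 to 7.98 in WT and 15.3 to 16.8 in P-Apex1KO mice (exact permutation p = 0.0571), and at 10-dpf the groups overlapped.

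**Figure D3:**
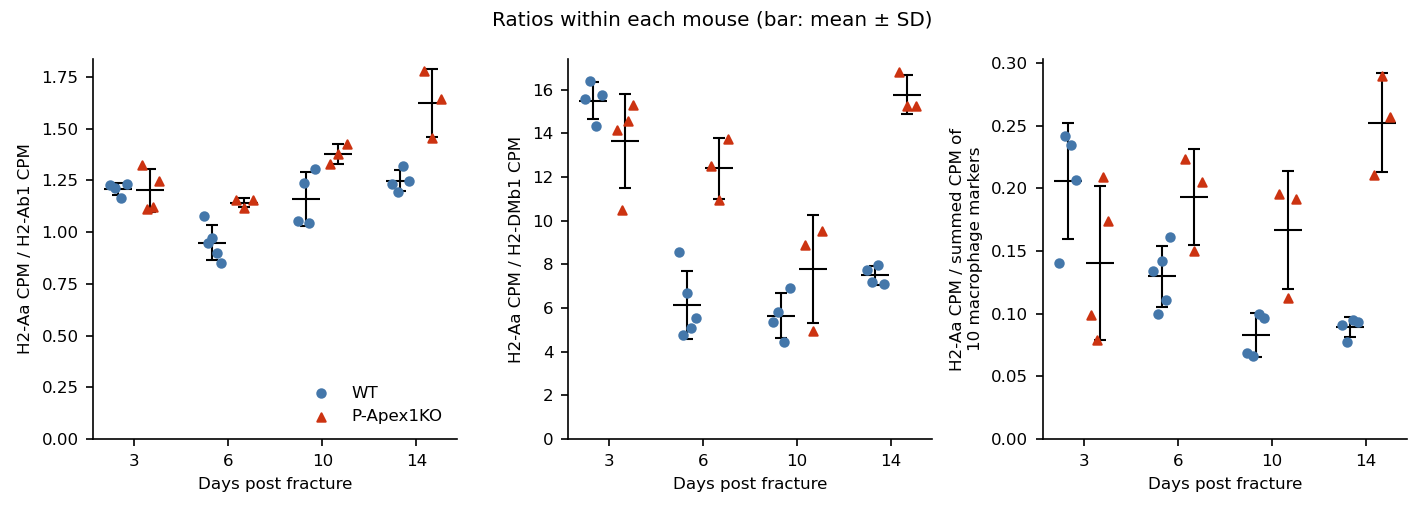
Ratios within each mouse against days post fracture, with circles for WT, triangles for P-Apex1KO mice and bars for the mean ± SD, for *H2-Aa* CPM over *H2-Ab1* CPM, over *H2-DMb1* CPM and over the summed CPM of 10 macrophage markers. At 14-dpf the P-Apex1KO mice lie above the WT mice in all 3 panels, at 0.211 to 0.289 against 0.0776 to 0.0952 for the macrophage ratio. The macrophage sum includes *Csf1r* and *Cd68*, also known from osteoclasts and lower in P-Apex1KO mice at 14-dpf, while 5 of 10 markers were called higher, beside 4.28% of all genes. The ratio is therefore not a level per macrophage.

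Among mice of the same group the members rose and fell together. After each group's mean log2 CPM was subtracted, *H2-Aa* correlated over the 30 mice with *H2-Eb1* (Pearson r = 0.967, permutation p = 1e-05, Spearman rho = 0.976, permutation p = 1e-05), *H2-Ab1* (r = 0.944, rho = 0.944, both p = 1e-05) and *Cd74* (r = 0.921, rho = 0.944, both p = 1e-05), where 1e-05 is the smallest p that 100000 permutations within groups can give. *Ciita* followed less closely (r = 0.790, p = 2e-05, rho = 0.760, p = 1e-05), then *H2-DMa* (r = 0.663, p = 8e-05, rho = 0.669, p = 0.00042) and *H2-DMb1* (r = 0.589, p = 0.00373, rho = 0.548, p = 0.00803).

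The same was computed for the mean log2 CPM of marker lists. *H2-Aa* moved with the dendritic cell markers (r = 0.720, p = 0.00032, rho = 0.661, p = 0.00146), the T cell markers (r = 0.631, p = 0.00179, rho = 0.667, p = 0.00037) and the B cell markers (r = 0.550, p = 0.0111, rho = 0.604, p = 0.00233). With the macrophage markers r was 0.00 (p = 0.989, rho = 0.110, p = 0.630) and with the interferon gamma axis 0.179 (p = 0.508, rho = 0.194, p = 0.406). These 11 relations gave Benjamini-Hochberg adjusted p-values for r of 3.67e-05 to 0.0136 for the 9 others than macrophages and the interferon gamma axis. Without the 2 mice farthest from the median of *H2-Aa* (replicate 2 of the 3-dpf and of the 10-dpf P-Apex1KO group), r was 0.952 with *H2-Eb1*, 0.665 with *Ciita*, 0.633 with the dendritic cell, 0.620 with the T cell and 0.487 with the B cell markers.

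Ranked among 13796 genes that code for protein and average 1 CPM or more, the 10 non-members most like the mean of the 7 in these within-group differences were *P2ry10* (r = 0.769), *Ccr7* (0.761), *Mif4gd* (0.751), *Scml4* (0.748), *Cd2* (0.733), *Cfd* (0.719), *Ccr6* (0.698), *Dpp4* (0.695), *Cd83* (0.694) and *H2-DMb2* (0.691), over 30 mice and with no test. *Ccr7* is the lymph node homing receptor of mature dendritic cells and naive lymphocytes, *Cd83* a surface protein of mature dendritic cells and B cells, and *Cd2* an adhesion molecule of lymphocytes. *Cfd*, complement factor D, known from adipocytes, was the only 1 of the 10 that passed the threshold at 10-dpf (log2 fold change 1.96, adjusted p = 0.0316, edgeR).

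**Figure D4:**
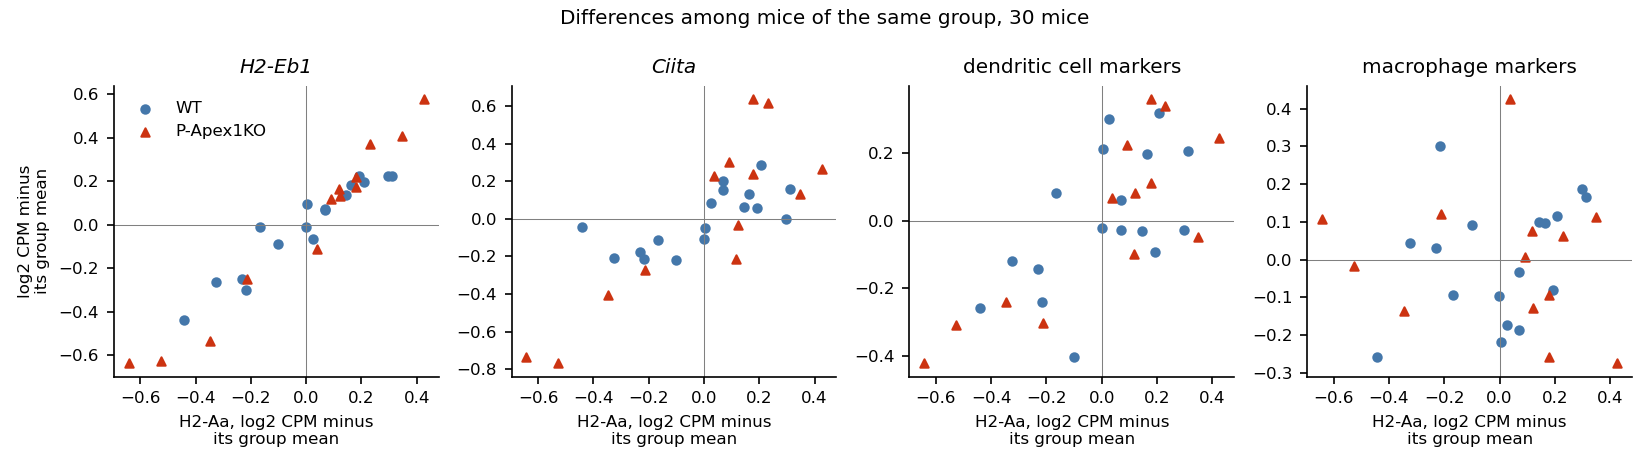
Log2 CPM minus the group mean of *H2-Eb1*, *Ciita* and the mean of the dendritic cell and macrophage marker lists (vertical axes) against that of *H2-Aa* (horizontal axes), 1 point per mouse over 30 mice. The points follow a line for *H2-Eb1* (r = 0.967) and scatter without a trend for the macrophage markers (r = 0.00).

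The rest of the class II route was followed with a list of 11 genes, of which 10 were tested. *H2-Ea*, the alpha chain of I-E, known to be silent in C57BL/6 mice, had at most 1 count in any library and 0 in 25 of the 30. At 10-dpf *Ctss*, the protease that trims the invariant chain, was at 88.8 ± 24.0 CPM (SD, n = 4) in WT and 176 ± 36.5 CPM (n = 3) in P-Apex1KO mice (log2 fold change 0.92 ± 0.12, adjusted p = 0.0120, edgeR), and *Marchf1*, the ubiquitin ligase that removes class II from the surface, at 14.8 ± 3.1 and 27.7 ± 2.28 CPM (0.89 ± 0.15, adjusted p = 0.0182). They were the 2 of 10 called higher by edgeR, beside 3.01% of all genes, and edgeR called 0 lower, beside 3.44%. DESeq2 called 3 higher, beside 6.28%, and 1 lower, beside 5.15%. By edgeR 6 of 10 had an unadjusted p under 0.05, beside 24.3% of all genes.

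At 14-dpf *Ctss* and *Marchf1* were again higher, with log2 fold changes of 1.04 ± 0.13 and 1.39 ± 0.22 (SE, adjusted p = 0.00313 and 0.00832, edgeR), beside 4.28% of all genes called higher. *Ifi30*, the lysosomal thiol reductase, and *Sppl2a*, the protease that removes the last membrane fragment of the invariant chain, were lower, with -1.17 ± 0.14 and -0.76 ± 0.10 (adjusted p = 0.00285 and 0.00423), beside 7.04% of all genes called lower. The endosomal steps thus moved both ways. At 6-dpf, as a description, 3 of 10 were higher without overlap, beside 8.71% of all genes, and 1 lower, beside 11.9%. The largest log2 fold changes were those of *H2-Ob* (1.31 ± 0.41), *H2-Eb2* (1.22 ± 0.30) and *H2-Oa* (0.95 ± 0.28). At 3-dpf 0 of 10 were called by edgeR or DESeq2 and 0 had an unadjusted p under 0.05.

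The list of transcription factors of class II genes held 10, including the RFX and NF-Y subunits. By edgeR 1 was called higher at 10-dpf, beside 3.01% of all genes, and 1 lower at 14-dpf, beside 7.04%. The first was *Irf8* (39.2 ± 5.87 CPM in WT, 67.4 ± 14.0 CPM in P-Apex1KO mice, adjusted p = 0.0329, edgeR) and the second *Spi1* (77.2 ± 5.18 and 50.1 ± 4.00 CPM, adjusted p = 0.0178). At each of these times 3 of 10 had an unadjusted p under 0.05, beside 24.3% and 27.6% of all genes. DESeq2 called 1 higher at 10-dpf, beside 6.28%, and 2 higher at 14-dpf, beside 7.09%. It called 1 lower at 14-dpf, beside 1611 of 20228 genes. *Irf8* is a factor of dendritic cells and macrophages, and *Spi1* encodes PU.1. Across these factors the median log2 fold change came to 0.04 at 10-dpf and 0.00 at 14-dpf, against the members' 0.99 and 1.07 and -0.00 and 0.04 over all genes. At 3-dpf 0 of 10 were called by either tool.

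In the interferon gamma axis, *Ifng* itself was at most at 0.670 CPM and had 0 counts in 7 of 30 mice. At 10-dpf 2 of 13 genes of the axis were called higher, beside 3.01% of all genes, among them *Gbp3* (log2 fold change 0.92 ± 0.19, adjusted p = 0.0299, edgeR). At 14-dpf 3 of 14 were, beside 4.28% of all genes, *Cxcl9* (6.39 ± 0.670 and 35.0 ± 6.82 CPM, adjusted p = 0.00202), *Igtp* (14.4 ± 1.24 and 36.4 ± 3.51 CPM, adjusted p = 0.00527) and *Cxcl10* (1.30 ± 0.442 and 6.61 ± 0.989 CPM, adjusted p = 0.0115). The receptor chain *Ifngr2* was the 1 of 14 called lower (-0.40 ± 0.10, adjusted p = 0.0425, edgeR), beside 7.04% of all genes. At 6-dpf 4 of 14 were higher without overlap, beside 8.71%. At 3-dpf, where the members did not differ detectably, 0 of 13 were called by edgeR. There 6 had an unadjusted p under 0.05, beside 6.12% of all genes, and DESeq2 called 3 higher, beside 0.388%.

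Costimulatory molecules are the further signal that T cells need beside the class II complex. The list of 6 genes followed here also holds ligands of the inhibitory receptor PD-1, *Cd274* among them. *Cd80* was at 2.90 ± 1.03 CPM (SD, n = 4) in WT and 11 ± 1.26 CPM (n = 3) in P-Apex1KO mice at 10-dpf (log2 fold change 1.89 ± 0.20, adjusted p = 0.00608, edgeR) and at 4.60 ± 1.01 and 13.2 ± 2.80 CPM at 14-dpf (1.83 ± 0.35, adjusted p = 0.0154). *Cd86* rose at both times (0.93 ± 0.18, adjusted p = 0.0275, and 1.71 ± 0.25, adjusted p = 0.0055), and *Cd274*, which encodes PD-L1, at 14-dpf (1.02 ± 0.20, adjusted p = 0.0174). Thus 2 of 5 tested were called higher at 10-dpf, beside 3.01% of all genes, and 3 of 6 at 14-dpf, beside 4.28%, and at 6-dpf 5 of 6 were higher without overlap, beside 8.71%.

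Class I presentation genes were called higher at 10-dpf in 5 of 10 cases, beside 3.01% of all genes, among them the immunoproteasome subunits *Psmb8* (log2 fold change 0.64 ± 0.11, adjusted p = 0.0201, edgeR) and *Psmb9* (0.90 ± 0.19, adjusted p = 0.0305) and the heavy chain *H2-D1* (0.60 ± 0.13, adjusted p = 0.0315). At 14-dpf 0 of 10 were called by edgeR, while 4 had an unadjusted p under 0.05, beside 27.6% of all genes. DESeq2 called 2 higher at that time, beside 7.09%. At 3-dpf edgeR and DESeq2 called 0 of 10, while 7 had an unadjusted p under 0.05, beside 6.12% of all genes, and 5 were higher without overlap, beside 1.97%. Across the 10 genes the median log2 fold change came to 0.62 at 10-dpf and 0.48 at 14-dpf. *Cd4*, the coreceptor that binds class II, was higher at 10-dpf (9.40 ± 2.57 CPM in WT, 18.2 ± 2.45 CPM in P-Apex1KO mice, adjusted p = 0.0211) and did not pass at 14-dpf (11.6 and 27.4 CPM, adjusted p = 0.212).

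Markers of the cells that can carry class II were followed beside the members, and their part in the results was not tested. The summed level of 10 macrophage markers was 885 to 1078 CPM in WT and 1441 to 1701 CPM in P-Apex1KO mice at 6-dpf, 867 to 1017 and 1029.6 to 1181 CPM at 10-dpf, and 1216 to 1429 and 1207 to 1366 CPM at 14-dpf, so at 14-dpf the sums overlapped while *H2-Aa* did not. Single macrophage markers parted at 14-dpf. By edgeR 5 of 10 were called higher, beside 4.28% of all genes, and 2 lower, beside 7.04%. *Mrc1* (0.98 ± 0.13, adjusted p = 0.00366) was higher, and *Csf1r* (-1.12 ± 0.11, adjusted p = 0.00113) and *Cd68* (-1.38 ± 0.15, adjusted p = 0.00184), both also known from osteoclasts, were lower. At 10-dpf 6 of 10 were called higher, beside 3.01% of all genes, and at 6-dpf 9 of 10 were higher without overlap, beside 8.71%.

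The dendritic cell markers summed to 54.4 to 79.1 CPM in WT and 76.2 to 109.6 CPM in P-Apex1KO mice at 6-dpf, 58.3 to 75.3 and 66.9 to 98.6 CPM at 10-dpf and 81.0 to 89.6 and 94.2 to 142 CPM at 14-dpf. *Flt3* was the 1 of 10 called at 10-dpf (4.44 ± 0.711 and 7.44 ± 0.524 CPM, adjusted p = 0.0394, edgeR), beside 3.01% of all genes called higher. At 14-dpf edgeR called 0 of 10, while 5 had an unadjusted p under 0.05, beside 27.6% of all genes. DESeq2 called 4 higher at that time, beside 7.09%. *H2-Aa* divided by this sum was 0.951 to 1.65 in WT and 1.84 to 2.95 in P-Apex1KO mice at 10-dpf and 1.22 to 1.49 and 2.68 to 3.18 at 14-dpf.

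The B cell markers summed to 140.0 to 241 CPM in WT and 169.7 to 321 CPM in P-Apex1KO mice at 6-dpf, 238 to 296 and 223 to 414 CPM at 10-dpf and 256 to 313 and 371 to 929.9 CPM at 14-dpf. The highest of these was P-Apex1KO replicate 2 at 14-dpf, the mouse in which all 7 members were highest. By edgeR 0 of 10 B cell markers were called at 10-dpf (5 with an unadjusted p under 0.05, 3 higher by DESeq2) and 0 at 14-dpf (7 and 5). Of all genes, 24.3% had an unadjusted p under 0.05 at 10-dpf and 27.6% at 14-dpf. DESeq2 called 6.28% and 7.09% of all genes higher at these times. *H2-Aa* over the B cell sum was 0.195 to 0.404 in WT and 0.486 to 0.762 in P-Apex1KO mice at 10-dpf and overlapped at 14-dpf (0.385 to 0.495 and 0.408 to 0.947).

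The T cell markers were low, with sums of 11.3 to 21.0 CPM in WT and 19.9 to 32.2 CPM in P-Apex1KO mice at 6-dpf, 22.8 to 25.4 and 19.9 to 38.1 CPM at 10-dpf and 25.8 to 30.7 and 49.7 to 61.7 CPM at 14-dpf. By edgeR 0 of 8 were called at 10- or 14-dpf. An unadjusted p under 0.05 was found for 3 and 5 of them, beside 24.3% and 27.6% of all genes. DESeq2 called 1 and 2 higher, beside 6.28% and 7.09%. No gene of these 4 lists was at 0 in any group as a whole, and *Xcr1* had the lowest maximum over the 30 mice, 2.02 CPM. Other tissue moved too. The cartilage sum was 25481 to 47328 CPM in WT and 1821 to 3569.6 CPM in P-Apex1KO mice at 6-dpf. It overlapped between the genotypes at 10-dpf (13302 to 36168 and 8936 to 15276 CPM) and at 14-dpf (860.0 to 5023 and 3769 to 4200.3 CPM). At 14-dpf edgeR called 6 of 6 cartilage markers higher in P-Apex1KO mice, beside 4.28% of all genes. With sex in the model these calls rest on WT replicate 1, the WT female, whose sum was 860.0 CPM. The sums of the WT males were 3841, 5023 and 3485 CPM. Only 1 of the 6 markers was higher without overlap, beside 18.5% of all genes. The skeletal muscle sum was apart at 3-dpf, when the members were not called, at 3294 to 4785 CPM in WT and 4856 to 11145 CPM in the libraries labelled P-Apex1KO (0 of 6 called by edgeR). At that time 6 of 6 muscle markers had an unadjusted p under 0.05, beside 6.12% of all genes, and DESeq2 called 3 higher, beside 0.388%. The muscle sum was 2898 to 5354 and 7009 to 15642 CPM at 6-dpf, 916 to 3099 and 2801 to 6038 CPM at 10-dpf and 1141 to 4253 and 2744 to 10379 CPM at 14-dpf. Neutrophil precursor markers summed to 841 to 1245 and 1775 to 2176 CPM at 14-dpf, with 4 of 7 called higher, beside 4.28% of all genes, and overlapped at 6-dpf. The bone sum, most of it *Col1a1*, was lower in P-Apex1KO mice. It was 38044 to 53456 and 17601 to 27731 CPM at 6-dpf and 70242 to 95918 and 17388 to 18902 CPM at 14-dpf. The part of these tissues in the results was not tested.

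**Figure D5:**
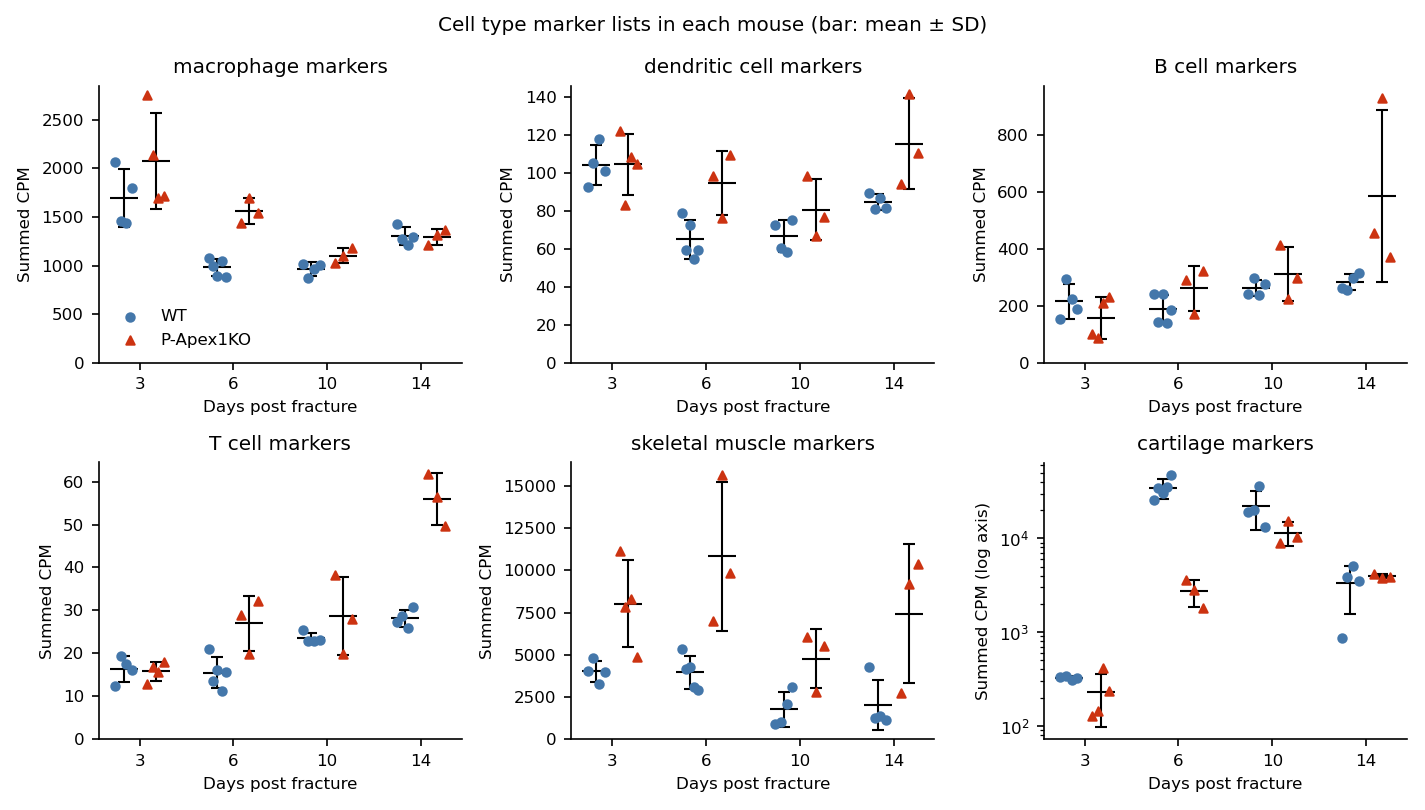
Summed CPM of 6 marker lists in each mouse against days post fracture, with circles for WT, triangles for P-Apex1KO mice and bars for the mean ± SD; the cartilage panel has a log axis. The macrophage sums lie apart at 6-dpf (885 to 1078 and 1441 to 1701 CPM) and overlap at 14-dpf, where the T cell sums lie apart (25.8 to 30.7 and 49.7 to 61.7 CPM).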

How the data were processed

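Total RNA of dissected callus was depleted of ribosomal and beta globin transcripts and made into stranded libraries. The authors aligned the reads to mm39 with STAR 2.7.0d, counted uniquely mapped reverse-stranded reads on Ensembl genes with featureCounts and deposited raw read counts per gene, which were used here. The reads were not analysed here. The labels gave genotype, time and sex. GENCODE M39 gave names and positions for 54749 of 55416 genes.

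Each time point was fitted with edgeR 4.0.16 (filterByExpr, TMM, genotype and sex, robust quasi-likelihood F test, Benjamini-Hochberg adjustment over all genes tested, threshold 0.05), after tests on simulated data. CPM used TMM over 30 libraries, and log2 CPM a prior count of 2. Alternatives, among them DESeq2 1.42.0, are given below. The 3 to 5 mice per group limit the precision.

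The members, lists and tests were chosen with earlier results of these data known. Genes named are the members, *Apex1*, up to 3 genes per list and time with the smallest p (at 6-dpf, the largest change), defining markers, and the 10 genes most like the members. The values of 1 gene of the interferon gamma list are not reported here.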

Additional observations from a re-analysis of the deposited data

Results flagged for a closer look

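Of 35 groups of 4 or 5 mice examined for a mouse far from the others, 1 was found, *Ciita* in the 3-dpf libraries labelled P-Apex1KO. Replicate 2 was at 21.7 CPM, and the gap to the next mouse, at 42.4 CPM, was 0.946 of the range of the group, above Dixon's critical value of 0.829 for 4 mice. Chance alone finds about 1 in 20 groups. The same mouse had the lowest level of the group for the other 6 members, and its B cell marker sum of 85.1 CPM was the lowest at that time. Its 3-dpf comparison called 0 members with or without it.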

How the results depend on the processing

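The 7 members kept their direction at 6-, 10- and 14-dpf under every alternative run. At 3-dpf, where 0 were called under any, the log2 fold change with 1 mouse left out ran from -0.14 to 0.046 for *H2-DMa* (above 0 without WT replicate 4 and without P-Apex1KO replicate 2 or 3), -0.20 to 0.036 for *H2-DMb1* and -0.39 to 0.0019 for *Cd74* (above 0 without WT replicate 4), and -0.23 to 0.0079 for *Ciita* (above 0 without P-Apex1KO replicate 2). The number called at 10-dpf, 3, was 7 with DESeq2 or all samples in one model, 5 with the replicate number as a block in place of sex, 2 with library size alone or no filter, and 0 to 6 with 1 mouse left out. At 14-dpf, where it was 1, it was 6 with DESeq2, all samples in one model, no sex term, the replicate block, or neither the WT female nor the sex term (chosen after the data were seen), 4 with library size alone, 2 with no filter, and 1 to 5 with 1 mouse left out. Leaving out WT replicate 1 with sex in the model could not be fitted. From 10- to 14-dpf in WT it was 1 with DESeq2 or all samples in one model and 0 to 1 with 1 mouse left out, and in P-Apex1KO mice 2 with DESeq2. The cause was not tested. Replicate numbers were shared by label only: deviations of same-numbered mice correlated at -0.252 to 0.411 over 13 pairs, and 4 of 13 P-Apex1KO mice were most like their own number.

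Over all genes, 2160 were called at 10-dpf by DESeq2 and 750 without sex against 1221, and 6849 without sex, 6188 with all samples and 6181 without the WT female and the sex term against 2289 at 14-dpf. At 3-dpf DESeq2 called 78 genes, all samples in one model 38, no filter 4 and the block 1, against 0. The interaction gave 446 by DESeq2 and 8 by library size against 86, and P-Apex1KO 14- against 10-dpf gave 549 by DESeq2, 672 without sex and 507 with all samples against 51. With 1 mouse left out the range was 42 to 1827 at 10-dpf, 1206 to 3773 at 14-dpf, 2 to 206 for the interaction, 1162 to 2760 for WT 14- against 10-dpf (2190) and 0 to 252 for P-Apex1KO 14- against 10-dpf. Library size alone moved the all-gene median of the log2 fold change from 0.01 to 0.20 at 6-dpf and from 0.04 to 0.31 at 14-dpf, where 71.0% rather than 37.8% of calls were higher in P-Apex1KO mice (64.7% rather than 46.7% at 10-dpf). That scaling also moved the 6-dpf values of *H2-DMa* and *H2-DMb1* to 0.48 and 0.41.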
